A study of Mus musculus with 176 samples.

Results

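Among 176 single CD4 T cells sequenced after immunization with the apolipoprotein B peptide P6, 14 bound the P6:I-Ab tetramer but had fewer than 10 reads of both *Foxp3*, the lineage factor of regulatory T cells (Tregs), and *Trbv13-2*, the β chain V segment of the dominant P6-specific clone. These 14 P6+ cells, called binders below, were set against the 110 P6- cells that also had fewer than 10 *Foxp3* reads, 500000 or more reads in total, 2000 or more genes detected and less than 10% of reads mitochondrial, and both groups were selected on these measured values. The study also discarded cells of low total mapping rate, a limit that was not applied here. It kept all P6+ cells but fewer P6- cells than the 110 used here. Some comparison cells are therefore ones that the study discarded. Which ones these are was not determined, and their part in the results was not tested. The comparison asks whether tetramer binders without the segment of the main clone and without *Foxp3* looked follicular, resting or like ordinary antigen-experienced cells. All cells were TCRβ+ CD4+ CD44hi lymphocytes from the inguinal and para-aortic nodes that drain the injection sites of female C57BL/6J mice, an inbred strain. The mice were immunized at 7 weeks of age with 100 µg of P6 in complete Freund's adjuvant, boosted after 2 weeks in incomplete adjuvant, and killed at 4 weeks. Cells were held in dasatinib, a kinase inhibitor, before they were stained with tetramer. The labels give the groups apart by tetramer binding and by title prefix. The 32 P6+ cells came from 1 mouse, per the study's methods the P6- cells were sorted from the rest of the sample volume, and each group was taken as 1 sample without replicates: no test was made, and all intervals are 95% intervals that cover counting error only, because amplified Smart-Seq2 reads carry no molecular identifiers.

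Follicular helper T cells are the CD4 T cells that help B cells in germinal centres. The repressor Bcl6 directs them, the factor TCF-1 (*Tcf7*) acts upstream of Bcl6 and also marks resting and stem-like memory T cells, and the SLAM family receptor Ly108 (*Slamf6*) is kept on the cells that express TCF-1. A CD4 T cell that carries *Bcl6* with the chemokine receptor *Cxcr5* and the inhibitory receptor *Pdcd1* is usually read as follicular, one with *Il7r*, *Lef1* and *Foxp1* as resting, and one with S100 genes, *Itgb7* and *Ccr2* as a tissue-seeking effector or memory cell.

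The values that chose the cells are a description and no finding. Among binders the highest *Foxp3* count was 4 reads and 8 of 14 cells had 0, while the 11 excluded P6+ cells had 22 to 4166. The highest *Trbv13-2* count among binders was 1 read, and the 7 P6+ cells that were *Foxp3*-low but carried *Trbv13-2* had 146 to 780. In the comparison cells *Foxp3* reached 2 reads, against 37 to 7737 in the 19 P6- cells left out for it. *Foxp3* lies on chromosome X (7573644 to 7595245, GRCm38) and *Trbv13-2* on chromosome 6 (41121396 to 41121832). Of the comparison cells, 22 of 110 carried *Trbv13-2*.

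Lack of *Trbv13-2* reads did not mean that another β chain was seen. In 9 of the 14 binders a different Trbv gene had 10 or more reads, a share of 64.3% (35.1 to 87.2%), against 66 of the 88 comparison cells that likewise lacked *Trbv13-2* (75%, 64.6 to 83.6%). *Trbv2* was present in P6+ cells 12, 13, 16 and 27, *Trbv13-1* in cells 5, 25 and 30, *Trbv3* in cell 4 and *Trbv29* in cell 19. P6+ cell 25 also held *Trbv12-1* and cell 27 also *Trbv4*. The numbers only name the cells. These genes lie on chromosome 6 between 41047340, the start of *Trbv2*, and 41271881, the end of *Trbv29*. P6+ cells 6, 10, 18, 22 and 29 had 1 to 4 reads over all Trbv genes together. Among those, cells 6, 10 and 18 held 572, 727 and 1451 reads of the β constant gene *Trbc2*, and cells 22 and 29 held 5 and 3. The rule therefore grouped 9 cells with 10 or more reads of another Trbv gene and 5 cells with none at that level. Such reads do not set a cell apart from those with *Trbv13-2*. Of the 7 *Foxp3*-low P6+ cells with *Trbv13-2*, 6 also held another Trbv gene at 10 reads, as did 6 of the 11 P6+ cells with *Foxp3*.

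The study lists reconstructed junctions. Besides that of the main clone, those below come from rows without TRBV13-2, for V segments also seen in the binders. Rows with the β segment of the main clone were thus left out beforehand. Per the study, several unexpanded cells had an α or β chain in common with that clone. No junction is given below for TRBV29 or TRBV12-1, which were also seen in binders. Letters are the nucleotides between V and J segment ends as listed, and capitals mark the longest stretch that also occurs in the β junction of the main clone (TRBV13-2, TRBJ2-4), which is 20 bases long.
main clone β: ggtgacagggggcgacaaaa
TRBV2, TRBJ2-4: cccagCAGGGGaaaac
TRBV13-1, TRBJ1-5: cagtggGACAGGGGGCcggcaggc
TRBV13-1, TRBJ2-7: TGAtgcccagaaatatga
TRBV3, TRBJ2-7: gcttACAGGGGcgcgaaca
TRBV3, TRBJ2-2: gcttactctGGGGGggtggcaccg
TRBV3, TRBJ2-2: ttagcgGACAcc
TRBV4, TRBJ2-1: gcagcccggactGGGGGCGAgctga
The shared stretch was 6 bases for the TRBV2 junction, 10 and 3 for those with TRBV13-1, 7, 5 and 4 for those with TRBV3 and 8 for TRBV4. The stretches of 6 or more bases were runs of G with their flanks, and the D segments of the mouse β locus are rich in G. The list does not name cells, but the segment pair of P6+ cell 25 and that of cell 27 each stood together in 1 row only. It also holds 1 clonotype with the α junction of the main clone (taacagtgca, TRAV7D-6 and TRAJ17) and no β junction, and which cells belong to it was not determined here. The counts do not settle it: *Trav7d-6* was at 0 in every P6+ cell, those of the main clone included, and *Traj17* had 5 reads in cell 6 and 1 in cell 29.

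Binders were sequenced more deeply and held fewer mitochondrial reads than comparison cells, which stands beside every result below and whose part in them was not tested. They had 1174015 to 2700535 reads (median 1959414) and a median of 4222 genes, against 522188 to 3401372 reads (median 1538460) and 3446 genes. With each cell drawn down to 522186 reads, binders had a median of 2624 genes and comparison cells of 2247.5. The mitochondrial share was 0.505 to 2.82% in binders and 1.02 to 9.46% in comparison cells, and 86 of the 110 lay above the highest binder. All binders bore 1 title prefix, whose meaning the labels do not give and which they shared with 8 comparison cells that had 1.65 to 7.87% mitochondrial reads. T cell genes were seen in every binder but not in every comparison cell: of 13 CD4 T cell genes a binder held 5 to 11 at 10 reads (median 9) and a comparison cell 0 to 13 (median 8). *Trac* had 10 or more reads in 14 of 14 binders and 91 of 110 comparison cells, and *Cd3g* in 13 and 68. Most genes of other lineages were at 0 in binders, while 1 or 2 genes of each list reached 10 reads in some binder. Of 13 B cell genes 8 had 0 reads, and *Cd79a* and *Ms4a1* were at 0. Of 10 myeloid genes 8 had 0, *Lyz2* and *Csf1r* among them, and of 8 CD8 T cell and NK cell genes 5 had 0, *Cd8a* among them. The summed level of the B cell list was 0.908 to 2221 cpm in binders and 0 to 6354 cpm in comparison cells, and rested on *Ighm* and *Cd74*. The myeloid list summed to 0 to 961 cpm in binders, from *Cst3*, and to 0 to 9983 cpm in comparison cells, and the CD8 T cell and NK cell list to 0 to 654 cpm, from *Gzma* in 1 cell, and to 0 to 2734 cpm.

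*Bcl6* (chromosome 16, 23965052 to 23988852) differed most of the 3 markers in the share of cells with 10 or more reads, when all 110 comparison cells were used. P6+ cell 12 held 2547 reads, cell 13 1003, cell 19 772, cell 10 577, cell 5 98 and cell 25 60, and the other 8 cells 0 to 3. No binder lay between 3 and 60 reads, and cells 5 and 25 lay well under the other 4 positive cells. In the comparison cells the lowest and the median count were 0 and the highest 1440, and 11 cells held 345 or more. The share of cells with 10 or more reads was 42.9% in binders (17.7 to 71.1%) and 10% in comparison cells (5.10 to 17.2%). At 1 read in place of 10 the shares were 57.1% and 43.6%. After thinning the counts were again 6 of 14 and 11 of 110. The pooled level, in counts per 1000000 reads (cpm), was 192 (187 to 197) against 58.7 (57.6 to 59.9), a log2 ratio of 1.69 with a pseudocount of 1 cpm. P6+ cell 12 supplied 50.3% of the *Bcl6* reads of the binders, and without it the log2 ratio was 0.77. At the title prefix of the binders 1 of 8 comparison cells carried *Bcl6* (12.5%, 0.316 to 52.7%, which overlaps the interval of the binders), at 70.2 cpm for the 8 together, and across the title prefixes the comparison level ran from 0.185 to 143.5 cpm.

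*Slamf6* (chromosome 1, 171917515 to 171953170) was present in fewer binders. P6+ cell 16 held 4654 reads, cell 30 2492, cell 10 1583 and cell 12 914, and the other 10 cells 0 to 5. In the comparison cells the counts ran from 0 to 9798 with a median of 1. The shares were 28.6% (8.39 to 58.1%) and 18.2% (11.5 to 26.7%), and the intervals overlapped. Pooled levels were 366 (359 to 374) and 343 cpm (341 to 346), a log2 ratio of 0.09, which became -0.73 without cell 16. None of the 8 comparison cells of the same title prefix reached 10 reads (0 to 36.9%), but at other prefixes up to 7 of 19 cells did.

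*Tcf7* (chromosome 11, 52252371 to 52283014) was the most widespread of the 3. P6+ cell 16 held 3024 reads, cell 4 2325, cell 25 2001, cell 19 1610, cell 10 1468, cell 12 829 and cell 5 246, while the other 7 cells held 0 to 4. The binders were thus evenly divided into clearly positive cells and cells with stray reads. The comparison counts ran from 0 to 5472, and their median was 3. The shares of 50% (23.04 to 76.96%) and 40% (30.8 to 49.8%) overlapped, and the pooled levels of 437 (429 to 445) and 424 cpm (421 to 427) gave a log2 ratio of 0.04. At the same title prefix 3 of 8 comparison cells were positive.

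**Figure D1:**
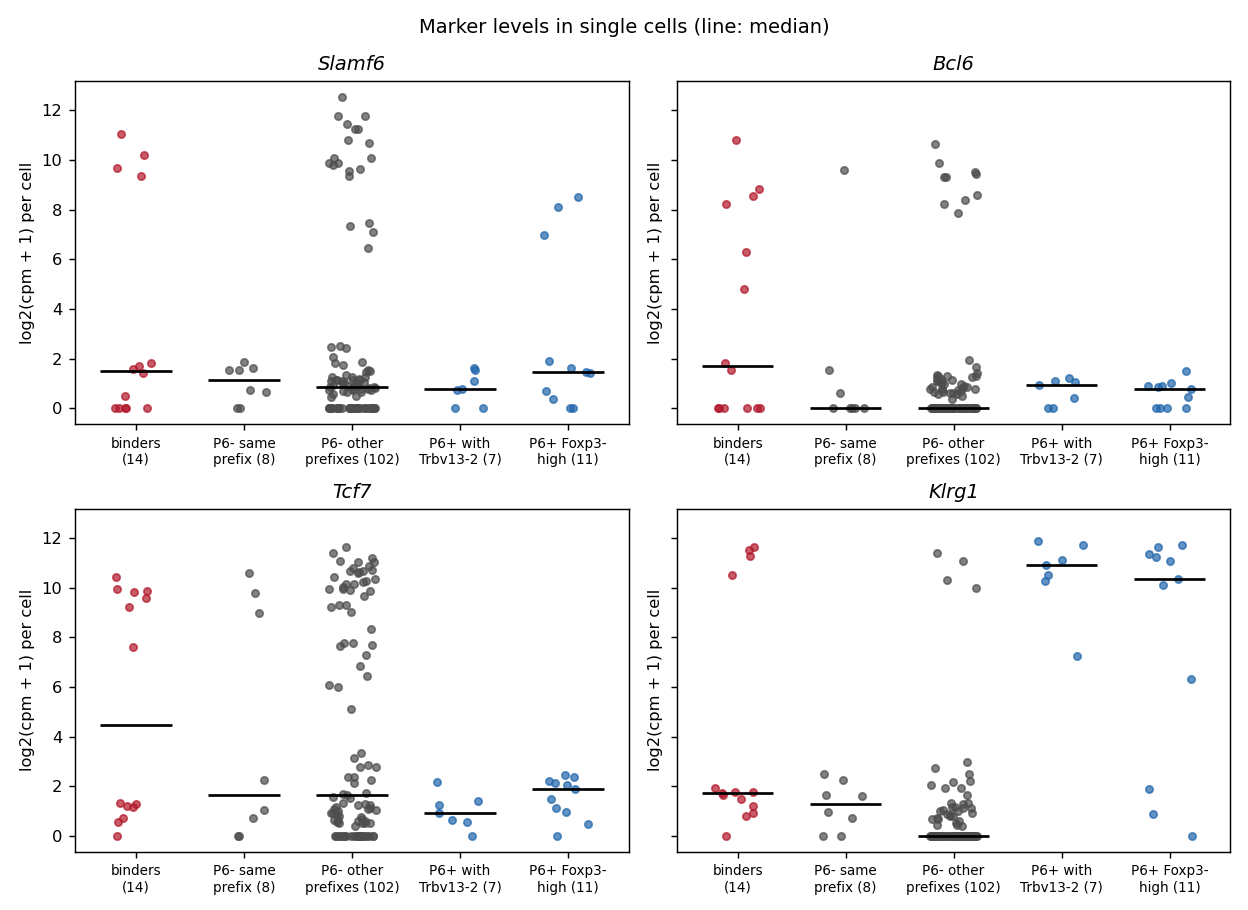
Level of *Slamf6*, *Bcl6*, *Tcf7* and *Klrg1* in each cell, as log2(cpm + 1), for the 14 binders, the comparison cells of the same and of other title prefixes, the 7 *Foxp3*-low P6+ cells with *Trbv13-2* and the 11 P6+ cells with *Foxp3*; each point is a cell and each line a median. Positive cells sit above those with stray reads, 6 binders are high for *Bcl6* and 4 for *Klrg1*, and none of the 7 *Foxp3*-low P6+ cells with *Trbv13-2* is high for the first 3 genes.

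The markers met in the same binders. *Bcl6* and *Tcf7* were both present in 5 of 14 binders (35.7%, 12.8 to 64.9%) and in 7 of 110 comparison cells (6.36%, 2.597 to 12.7%). All 3 markers were present in P6+ cells 10 and 12 and in 1 comparison cell. At least 1 of them was present in 9 binders (64.3%, 35.1 to 87.2%) and in 57 comparison cells (51.8%, 42.1 to 61.4%). The 7 *Foxp3*-low P6+ cells with *Trbv13-2* held none of the 3 at 10 reads (0 to 40.96% for each), with pooled levels of 1.01 cpm for *Slamf6*, 0.676 for *Bcl6* and 1.15 for *Tcf7*. Among the 11 P6+ cells with *Foxp3*, 3 held *Slamf6* and 0 held *Bcl6* or *Tcf7*.

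*Bcl6* came without *Cxcr5* and mostly without *Pdcd1* in the binders. Of the 6 binders with *Bcl6*, 0 carried *Cxcr5* and 2, cells 12 and 19, carried *Pdcd1*. Most comparison cells with *Bcl6* lacked them as well: of 11 such cells, 2 carried *Cxcr5* and 2 carried *Pdcd1*. *Cxcr5* stood at 5375 reads in P6+ cell 27, which lacked all 3 markers, and at 186 in cell 4. *Il21*, the cytokine of follicular helper cells, had 0 reads in binders, where 3 counts would allow 0.114 cpm, and 0.01 cpm in comparison cells, so it was not detectable in either. The *Bcl6* cells all carried *Izumo1r*, the folate receptor FR4, which 5 of the 8 other binders also carried, and *Tnfsf8* (CD30 ligand), carried by 3 of the other 8. *Sh2d1a*, the adaptor SAP of the SLAM receptors, was in 5 of 6. The pair *Bcl6* and *Izumo1r* occurred in 42.9% of binders (17.7 to 71.1%) and 3.64% of comparison cells (0.9995 to 9.05%). The Rab GTPase activator *Tbc1d4* was also in 5 of the 6. These pairs were chosen after the values were seen.

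Of the follicular helper list of 28 genes, 22 reached 20 cpm in the higher group, 9 were at least 2-fold higher in binders, 3 at least 2-fold lower and 10 within that range, with a median log2 ratio of 0.56. Over all 7090 genes that reached 20 cpm, 25.9% were 2-fold higher and 37.7% 2-fold lower, and the median was -0.17, so 2-fold differences between these pooled sums were the usual case. Without the highest cell of each gene in each group the median of the list was -0.18. *Izumo1r* was at 869 against 344 cpm, in 11 of 14 binders and 34 of 110 comparison cells. *Hif1a*, the hypoxia factor that many activated T cells express, was at 818 against 289 cpm, in 12 and 47 cells. Several higher genes rested on a single binder: cell 27 held 96.5% of the *Cxcr5* reads, and 96.5% of *Cd200* and 97.5% of *Tox2* likewise came from 1 cell each. The lower genes were *Icos*, a costimulatory receptor, at 547 against 1349 cpm, *Pdcd1* at 149 against 354 cpm, and *Btla*, an inhibitory receptor, at 0.114 against 89.4 cpm, although *Icos* was in 8 of 14 binders and 57 of 110 comparison cells. *Tnfsf8*, in 9 binders, was at 1233 against 1606 cpm.

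Cells were also counted in place of reads, by a rule chosen after the data were seen. Among the 1954 genes with 10 or more reads in at least 25% of either group, the share of cells was 25 points or more higher in binders for 19.1% and lower for 1.54%. Of the 12 follicular helper genes so measured, 4 were higher by 25 points (*Bcl6*, *Tox*, *Izumo1r* and *Hif1a*) and 0 lower, with a median difference of 21.8 points against 14.5 over all genes. After thinning the same 4 genes and *Sh2d1a* passed, 5 of 11. The rise was not particular to follicular helper genes. With all reads, the regulatory list had 4 of 8 genes higher and 0 lower, with a median of 25.1 points. The anergy list had 1 of 5 higher, with a median of 22.2 points. Medians were lower for the receptor signal list (15.97), the effector and memory list (12.6) and the resting list (1.17). A binder held 4 to 13 of the 28 follicular helper genes at 10 reads, with a median of 7.5, and a comparison cell 0 to 14 with a median of 4. At equal depth the medians were 6.5 and 4, and the ranges overlapped.

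**Figure D2:**
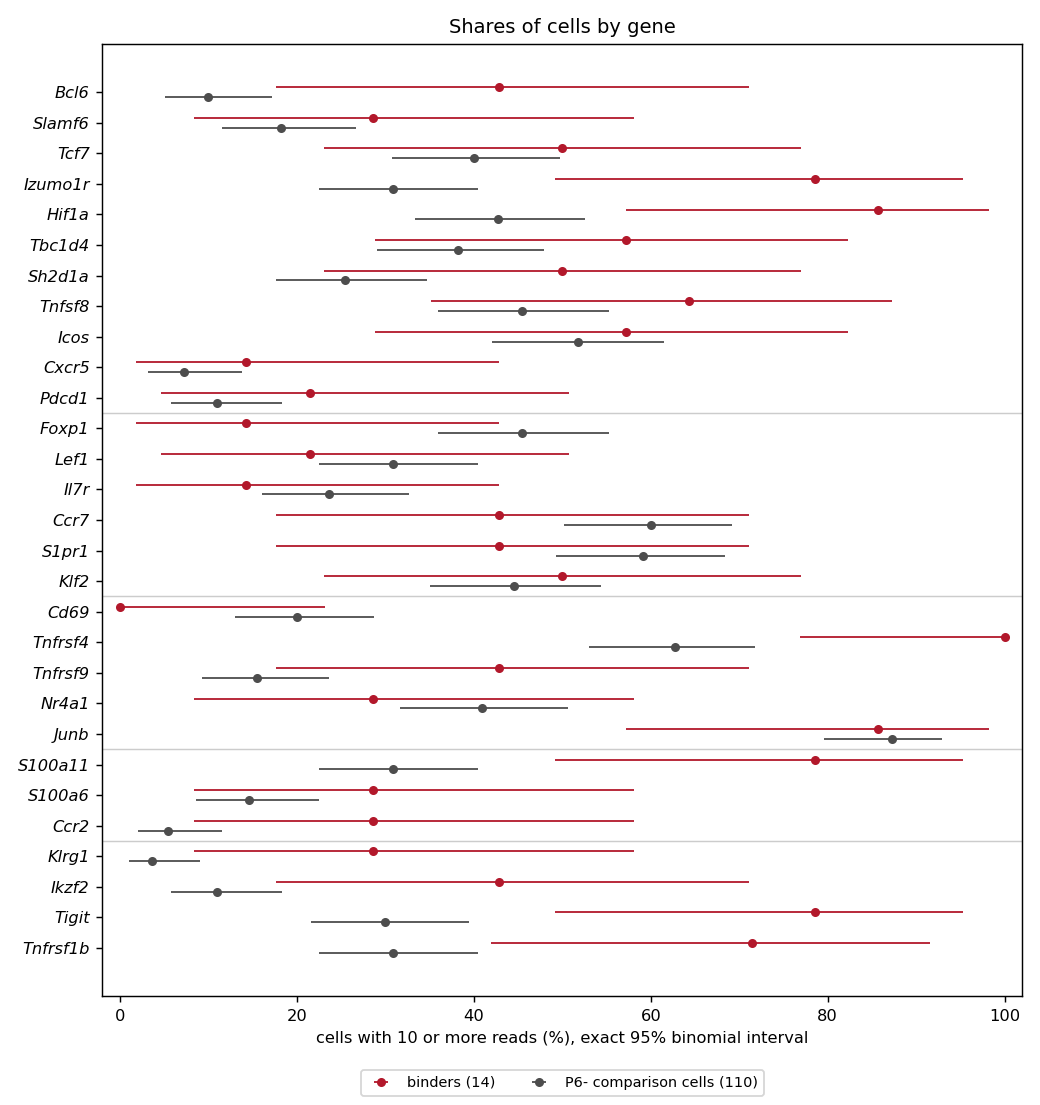
Share of cells with 10 or more reads of each gene, in percent, among 14 binders (red) and 110 comparison cells (grey), with exact 95% binomial intervals; grey rules part the follicular helper, resting, receptor signal, effector and memory, and regulatory lists. *Bcl6* is at 42.9% against 10%, *Izumo1r* at 78.6% against 30.9% and *Hif1a* at 85.7% against 42.7%, and *Cd69* is at 0 of 14 binders; the intervals count cells of 1 sample a group and are no test.

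Genes of resting and recirculating T cells included none that were 2-fold higher in binders. Of 25 genes 24 reached 20 cpm and 11 were 2-fold lower, where 37.7% of all genes were lower, and the median was -0.94. By medians over cells in place of pooled sums the median of the list was 0. *Foxp1*, which keeps T cells quiescent (chromosome 6, 98925338 to 99522721), was at 2.84 against 434 cpm, with 40 and 18 reads in P6+ cells 10 and 13 against 0 to 3 in the others. It was present in 2 of 14 binders (14.3%, 1.78 to 42.8%) and 50 of 110 comparison cells (45.5%, 35.9 to 55.2%), and was the list's only gene with a share lower by 25 points. At the same title prefix 4 of 8 comparison cells held it. *Lef1*, the partner factor of TCF-1, was at 13.05 against 303 cpm in 3 and 34 cells. *Il7r*, the receptor for the survival cytokine IL-7, was at 57.3 against 399 cpm, present in P6+ cells 29 and 30 with 389 and 1113 reads. The anti-apoptotic *Bcl2* had 0 to 2 reads in each binder, and *Igfbp4* had 0 reads in all, and with the latter put at the floor of 3 counts the median of the list was again -0.94.

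The genes of egress and homing differed among themselves. *Klf2*, the factor that drives lymph node exit, was in 7 of 14 binders at 777 cpm and in 49 of 110 comparison cells at 622 cpm. Its target *S1pr1*, the sphingosine phosphate receptor, was in 6 and 65 cells at 1359 and 1718 cpm, and *Ccr7*, the lymph node homing receptor, in 6 and 66 cells at 837 and 2569 cpm. A binder held 2 to 12 of the 25 resting genes (median 7.5) and a comparison cell 0 to 16 (median 8), and after thinning both medians were 7.5. Over genes the median share differed by 1.17 points, against 14.5 over all genes measured.

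Genes of recent antigen receptor signalling were mixed. Of 26 genes 23 reached 20 cpm, 3 were 2-fold higher, 12 were 2-fold lower, where 25.9% and 37.7% of all genes were, and the median was -1.09. *Cd69*, the early activation antigen (chromosome 6, 129267325 to 129275436), had 0 to 9 reads in the 14 binders (0%, 0 to 23.2%), while 22 of 110 comparison cells held it (20%, 12.98 to 28.7%), with up to 36254 reads, and these intervals overlapped. Pooled levels were 1.55 against 683 cpm. Several immediate-early and nuclear receptor genes were also lower. *Egr1* was at 0.228 against 45.2 cpm, *Fosb* at 0.0379 against 39.2 cpm, *Nr4a3* at 9.71 against 153 cpm and *Nr4a1* at 287 against 1134 cpm, in 4 and 45 cells. *Junb*, an AP-1 subunit, was at 1043 against 3567 cpm, in 12 of 14 and 96 of 110 cells, but in 4 of those binders with 13 to 17 reads only, and after thinning in 8 and 87 cells.

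Others of the list were not lower. *Fos* was at 320.4 against 288 cpm, in 2 and 10 cells, and *Jund* at 65.5 against 36.2 cpm, in 12 and 64 cells, both under 2-fold. *Tnfrsf4* (OX40), a costimulatory receptor, had 10 or more reads in 14 of 14 binders (76.8 to 100%) and 69 of 110 comparison cells (62.7%, 52.99 to 71.8%), at 3336 against 2055 cpm, also under 2-fold. The lowest binders held 12 and 13 reads, the median was 4523 and the highest 19585, and after thinning 12 binders and 57 comparison cells held 10 reads. *Tnfrsf9* (4-1BB), of the same receptor family, was in 6 and 17 cells at 962 against 194 cpm, and at 183 cpm in the 9 binders with another Trbv gene. *Myc* was in 3 of 14 binders and 3 of 110 comparison cells at 261 against 73.7 cpm, and *Nfkbid*, an NF-κB regulator, was at 1314 against 366 cpm with 91.6% of the binders' reads in 1 cell. Against the 8 comparison cells of the same title prefix the median of this list was 1.10 rather than -1.09, close to the median of 1.13 over all genes in that comparison, in which 51.4% of 5907 genes were 2-fold higher and 28.3% 2-fold lower. *Cd69* was still lower there, at 288 cpm in the 8 cells, of which 2 held it. Across the title prefixes its comparison level ran from 2.57 to 1567 cpm.

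**Figure D3:**
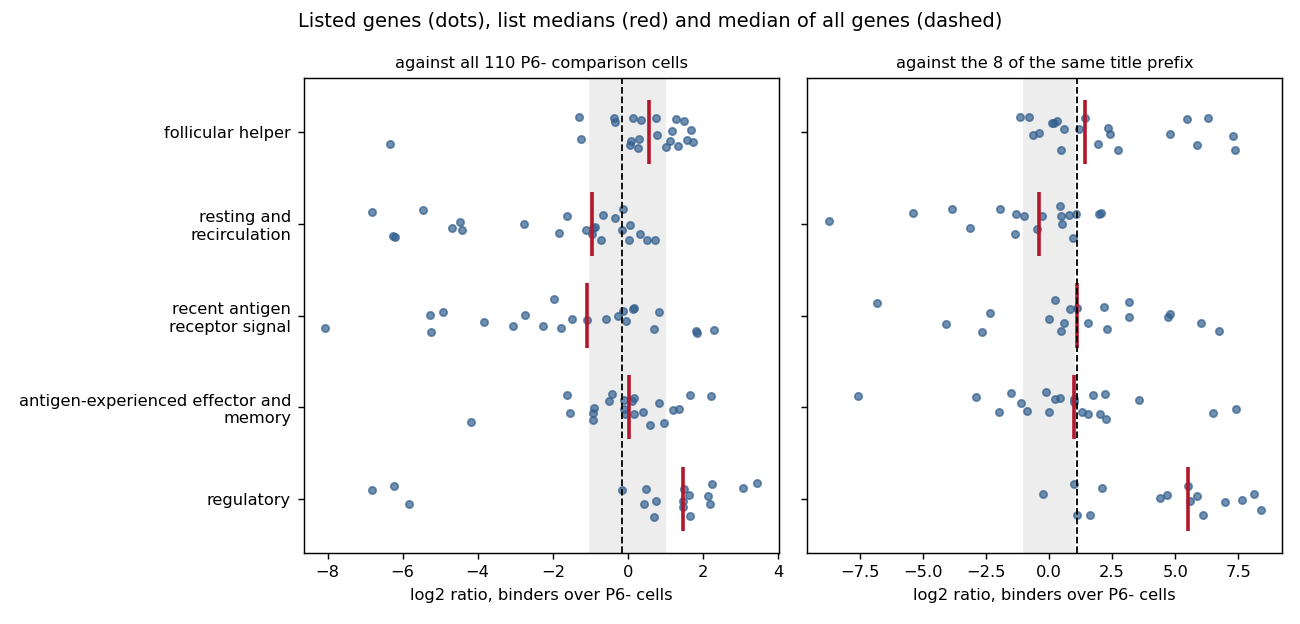
Log2 ratio of pooled cpm, binders over P6- comparison cells, for each gene of 5 lists that reached 20 cpm in the higher group, against all 110 comparison cells (left) and the 8 of the same title prefix (right). Red bars are list medians, dashed lines the medians of all genes at -0.17 and 1.13, and grey marks ratios under 2-fold; the resting list lies lowest against the dashed line in the right panel and the regulatory list highest in both.

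The antigen-experienced effector and memory list of 25 genes had 22 at 20 cpm or more, of which 4 were 2-fold higher and 3 lower, where 25.9% and 37.7% of all genes were, with a median of 0.02. *S100a11*, a calcium-binding protein, was in 11 of 14 binders (78.6%, 49.2 to 95.3%) and 34 of 110 comparison cells (30.9%, 22.5 to 40.4%), at 296 against 62.7 cpm. Of those binders cells 12 and 22 held 16 and 13 reads only, and after thinning the counts were 9 and 28 cells. *Cd44*, the antigen experience marker used in the gate, was at 352 and 312 cpm. *Prdm1*, which encodes Blimp-1, the antagonist of Bcl6, was at 0.19 against 20.5 cpm and in 0 of 14 and 5 of 110 cells. A binder held 3 to 16 of the 25 genes (median 5.5), a comparison cell 0 to 16 (median 4), and each of the 7 P6+ cells with *Trbv13-2* held 9 to 18 (median 15).

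The regulatory list had the highest median of the 5, at 1.46, although the cells were chosen for lack of *Foxp3*. Of 20 genes 18 reached 20 cpm, 10 were 2-fold higher and 3 lower, where 25.9% and 37.7% of all genes were. The median was 0.79 without P6+ cell 18 and -0.052 against the 24 comparison cells whose mitochondrial share was no higher than that of the binders. *Klrg1*, a receptor of terminally differentiated T cells and of effector Tregs (chromosome 6, 122270596 to 122282882), was at 692 (682 to 702) against 62.3 cpm (61.2 to 63.5), a log2 ratio of 3.45. It was carried by P6+ cells 18, 29, 22 and 6, with 7069, 5881, 2942 and 2327 reads, while the other 10 binders held 0 to 5. In the comparison cells 4 of 110 held it, with up to 3959 reads. *Gzmb* (granzyme B) was in cells 18, 6 and 22 with 4650, 2190 and 1087 reads. *Ikzf2* (Helios, a Treg-associated factor) was in 6 of 14 binders and 12 of 110 comparison cells at 313 against 70.7 cpm. Among the genes that were spread over most binders were *Tigit*, an inhibitory receptor, in 11 of 14 (78.6%, 49.2 to 95.3%) against 33 of 110 (30%, 21.6 to 39.5%), and *Tnfrsf1b* (TNF receptor 2) in 10 against 34. *Ctla4* was in 5 of the 9 binders with another Trbv gene and in 4 of the other 5. *Penk*, *Gpr83* and *Nrp1*, genes of thymic Tregs, had no binder at 10 reads.

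Cell by cell, 4 binders carried *Klrg1*, 8 others *Tcf7* or *Bcl6*, and cells 27 and 30 neither. *Klrg1* was not at 10 reads together with *Tcf7* or with *Bcl6*, in 0 of 14 binders and in 0 of 110 comparison cells. Only 4 of those comparison cells held *Klrg1*, so few could have shown such a pair. The 4 *Klrg1* binders all carried *Tnfrsf9*, *Ikzf2*, *Ccr2* (an inflammatory chemokine receptor) and *S100a6*, and 3 of them carried *Lag3*. No other binder carried *Ccr2* or *S100a6*. The 4 lacked *Slamf6*, *Bcl6* and *Tcf7*. Of the 7 *Foxp3*-low P6+ cells with *Trbv13-2*, 7 held *Klrg1* with *Ikzf2* and with *S100a6*, 4 held it with *Ccr2* and 3 with *Tnfrsf9*. Of the 11 P6+ cells with *Foxp3*, 8 held *Klrg1* with *S100a6*, 7 with *Ccr2*, 6 with *Tnfrsf9* and 5 with *Ikzf2*. Among the 110 comparison cells, 3 held *Klrg1* with *S100a6*, 3 with *Ccr2*, 3 with *Tnfrsf9*, 3 with *Ikzf2* and 2 with *Lag3*. Of the 14 binders 13 carried *Klrg1* or at least 1 of *Slamf6*, *Bcl6* and *Tcf7*, and P6+ cell 27, the one with *Cxcr5*, carried none. This grouping was seen in the values and is a description of the 14 cells.

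**Figure D4:**
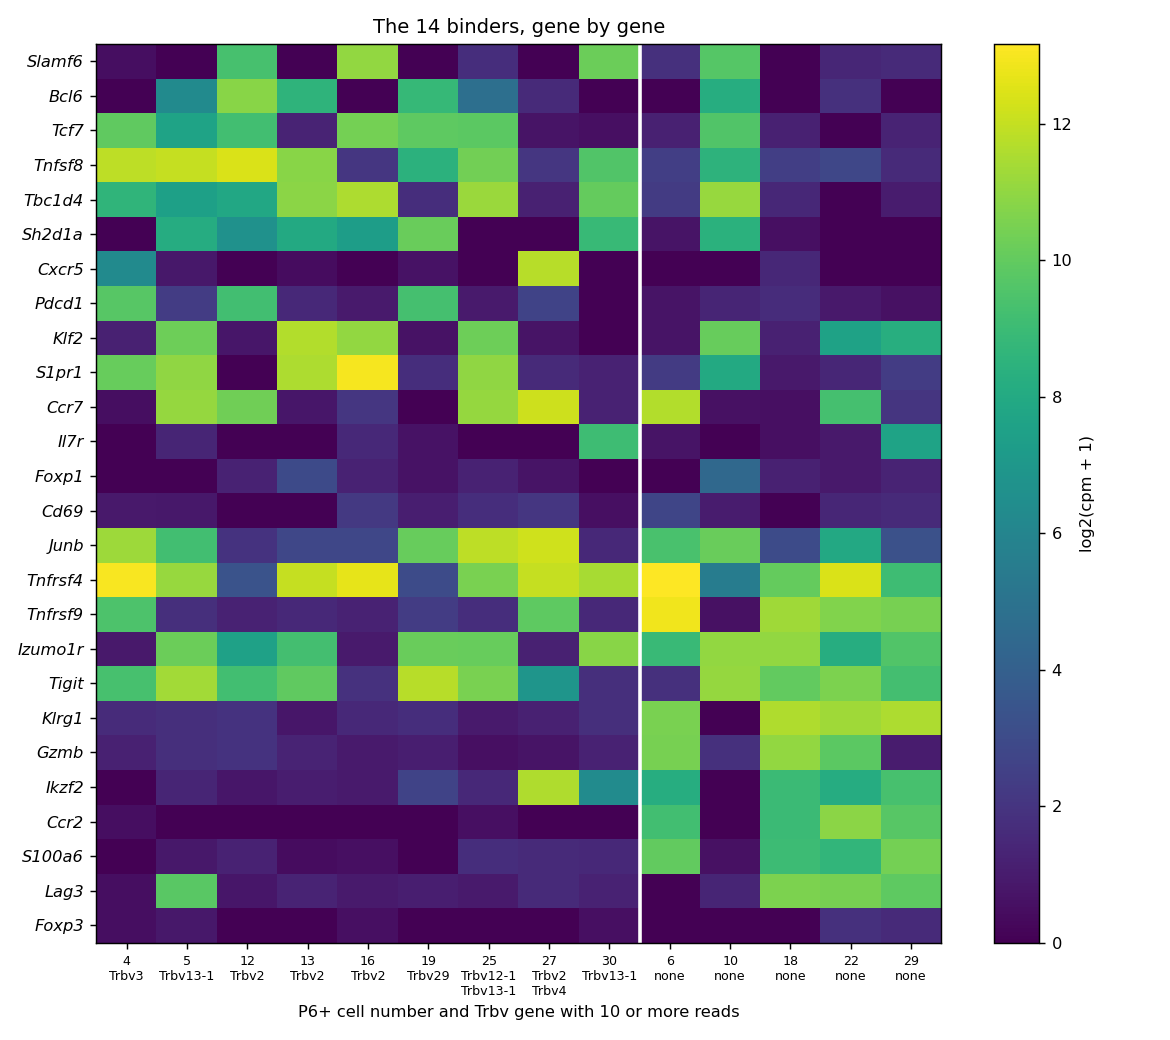
Level of 26 genes in the 14 binders, as log2(cpm + 1), with a column for each P6+ cell, named by its number and by the Trbv gene that had 10 or more reads; the white line parts the 9 cells with such a gene from the 5 without. *Klrg1*, *Ccr2* and *S100a6* are high only in cells 6, 18, 22 and 29, to the right of the line, and cell 10 there is high for *Slamf6*, *Bcl6* and *Tcf7*.

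The *Klrg1* binders were among those without a Trbv gene at 10 reads. The clonotype listed with the α junction of the main clone and without a β junction was not assigned to cells, so the counts do not tell whether the *Klrg1* binders belong to the main clone. *Klrg1* was present in 0 of the 9 binders with another Trbv gene (0 to 33.6%) and in 4 of the 5 without one (80%, 28.4 to 99.5%), and these intervals overlapped. *Bcl6* was present in 5 of 9 (55.6%, 21.2 to 86.3%) and 1 of 5, *Tcf7* in 6 of 9 (66.7%, 29.9 to 92.5%) and 1 of 5, and *Slamf6* in 3 of 9 and 1 of 5. When only the 9 cells were pooled against the same 110, the regulatory list turned from a median of 1.46 to -4.30, with 3 of 17 genes 2-fold higher and 10 lower. The effector and memory list went from 0.02 to -3.67, with 2 of 22 higher and 17 lower. The follicular helper list stayed at 0.55, with 8 of 22 higher and 4 lower, and the resting list went to -1.62, with 0 of 24 higher and 13 lower. The background for these counts was 24.8% higher and 47.3% lower among 6880 genes, with a median of -0.71. In the 9 cells *S100a6* was at 0.973 cpm and *Itgb7*, a gut homing integrin chain, at 3.78 cpm, against 673 and 3117 cpm in the 5 without a Trbv gene, whereas *S100a11* was at 299 and 290 cpm.

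**Figure D5:**
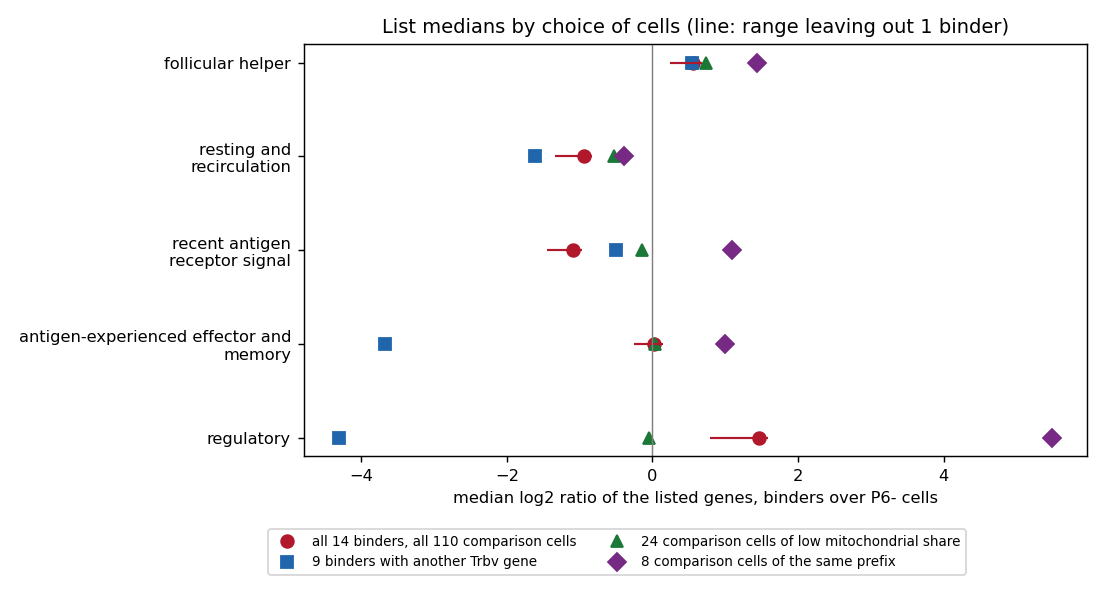
Median log2 ratio of 5 gene lists, binders over P6- comparison cells, for all cells (red, with a line from the lowest to the highest value when 1 binder is left out), for the 9 binders with another Trbv gene (blue), against the 24 comparison cells whose mitochondrial share was within that of the binders (green) and against the 8 of the same title prefix (purple). The regulatory median runs from -4.30 to 5.49; the medians of all genes also differ, at -0.17 for all cells, -0.71 for the 9 binders and 1.13 for the same title prefix.

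Genes of other helper programs gave no common picture, and their counts of genes past 2-fold stand beside 25.9% higher and 37.7% lower over all genes. Of 12 T helper 1 genes 7 reached 20 cpm, 1 was higher and 5 lower: *Cxcr3*, a chemokine receptor, was at 1107 against 136.1 cpm, mostly from P6+ cell 30 with 18790 reads, while the lineage factor *Tbx21* was at 0.341 against 66.7 cpm. Of 8 T helper 2 genes 5 were measured, with 1 higher and 1 lower, and *Gata3* was in 6 of 14 and 18 of 110 cells. Of 11 T helper 17 genes 2 were measured, with 0 higher and 1 lower. Of the anergy list 11 genes were measured, with 3 higher and 4 lower. Of the cycling list 7 were measured, with 2 higher and 5 lower, and *Mki67* was at 0.0379 against 20.3 cpm. Of the interferon response list 9 were measured, with 2 higher and 2 lower. Of the CD4 T cell list 13 were measured and *Trbc1* alone was past 2-fold, at 187 against 947 cpm, in 3 of 14 and 54 of 110 cells. Of the dissociation stress list 9 were measured, with 0 higher and 3 lower, and its summed level was 903 to 10648 cpm in binders and 2.48 to 21196 cpm in comparison cells. Of the B cell, myeloid, and CD8 T cell and NK cell lists 2, 1 and 2 genes were measured, with 0, 0 and 1 higher and 1, 0 and 1 lower.

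At the upper end of all genes, ranked by the smaller of the log2 ratios against all comparison cells and against those of the same title prefix, stood *Stx5a*, a Golgi SNARE protein (chromosome 19, 8741413 to 8756069), at 652 against 50.03 cpm. It was in 8 of 14 binders (57.1%, 28.9 to 82.3%) and 12 of 110 comparison cells (10.9%, 5.77 to 18.3%). *Gimap7*, a lymphocyte GTPase, was at 488 against 57.7 cpm, in 8 and 8 cells. *Pim1*, a kinase downstream of cytokine receptors, was in 13 of 14 binders (92.9%, 66.1 to 99.8%) and 41 of 110 comparison cells (37.3%, 28.2 to 47.01%), with 7 to 1981 reads per binder and a median of 446.5. *Itpk1*, *Serinc3*, *Smndc1*, *Fnbp1*, *Psmc1*, *Ninj1*, *Hnrnph2*, *Tbk1* and *Idh3b* completed the 12, out of 277 genes that met the conditions, with smaller ratios of 1.88 to 3.68. At the lower end of 82 genes were the mitochondrial *mt-Co1*, *mt-Co2*, *mt-Co3* and *mt-Nd5*, which move with the mitochondrial share given above, together with *Slc34a2*, *Atp1b3*, *Mir6236*, *Serf2*, *Junb*, *Arhgef1*, *Gas5* and *Zfp36l1*, with ratios of -4.89 to -1.56. *Atp1b3*, a subunit of the sodium pump, was at 222 against 1028 cpm, in 4 and 58 cells. *Zfp36l1*, an RNA decay factor of quiescent cells, was at 218 against 758 cpm, in 6 and 62 cells.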

How the data were processed

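Single cells were index sorted into wells, and cDNA was made by Smart-Seq2. Per the labels and the study's methods, reads were mapped with STAR 2.6.0a to GRCm38 with Ensembl annotation, with FastQC 0.11.7 and SAMtools 0.1.19, and the authors deposited gene-level read counts of 176 cells, neither normalized nor filtered for cells. From these, 53647 rows were averaged into 53546 gene names, counts of a group were summed, and divided by the summed total to give cpm. Genes with 20 cpm in the higher group were compared. Detection meant 10 reads, since counts under 10 occur for genes abundant in other wells. Sums carry exact Poisson and shares exact binomial 95% intervals, and 0 reads were taken to allow 3. No doublet caller was run on these sorted wells. Groups came from the labels, and the tetramer sign in a deposited list of cells equalled the label of every cell.

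The members and gene lists were chosen with earlier results of these data known. Named genes were the 3 markers, those at either end of each list (up to 4), the 12 at either end of all genes with 50 cpm or more, 10 reads in 50% of the cells, no cell holding over 50% of the reads and the same sign within the title prefix of the binders, every Trbv gene at 10 reads in a binder, and list genes beside their list. The computation of pooled ratios was checked on simulated counts. Thinning drew 522186 reads per cell without replacement. Gene positions came from GENCODE annotation of GRCm38. Alternatives changed the comparison cells, the thresholds, the pooling, the scaling (edgeR 4.0.16 TMM factors and DESeq2 1.42.0 size factors on pooled sums, without a test), the pseudocount, the minimum and the depth. Python 3.11.15, numpy 2.4.6, pandas 2.3.3, scipy 1.17.1 and R 4.3.3 were used. A few listed genes are left unnamed.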

Additional observations from a re-analysis of the deposited data

Results flagged for a closer look

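In the 8 comparison cells that shared the title prefix of the binders, 1 cell stood far from the others for *Bcl6*, at 774 cpm, while the other 7 held 0 or 1 read. It is the only *Bcl6* cell of that group, so the *Bcl6* level of that prefix rests on it. Of 12 sets of values examined in this way, in groups of 7 and 8 cells, this was the only one past the limit, which is Dixon's 95% critical value. About 1 in 20 sets of normally distributed values pass it by chance, and for counts mostly at 0, such as these, that rate is not known.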

How the results depend on the processing

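No paired analysis was possible because replicate numbers only name cells in accession order. Of 426 values recomputed under an alternative, 385 stayed within 1.5 times the reported value or within its interval, 37 moved and 4 reversed, and TMM factors, size factors, pseudocounts of 0.1 or 10, summed names, thinning and comparison cells without *Trbv13-2* moved none. Reversed means a change of sign where the reported log2 value was at least 1 in size. Smaller values that changed sign, such as several for *Slamf6*, are not counted as reversed. Against the 8 comparison cells of the same title prefix, 3039 genes were higher and 1673 lower, the list medians were 1.44 for follicular helper, 1.10 for receptor signal (reversed), 0.99 for effector and memory and 5.49 for regulatory genes, the *Slamf6* log2 ratio was 7.28, and 0% of those cells held *Slamf6*. With the 9 binders that had another Trbv gene, the medians were -1.62 for resting, -0.50 for receptor signal, -3.67 for effector and memory and -4.30 for regulatory genes (reversed). Against the 24 comparison cells of low mitochondrial share, chosen after seeing the data, receptor signal was at -0.14, regulatory genes at -0.052 (reversed), *Slamf6* at -0.54 and *Tcf7* at 0.67. With a threshold of 1 read, which left 7 binders and 85 comparison cells, regulatory genes were at 0.72, *Slamf6* at -0.86 and *Bcl6* at 2.56. Without the highest cell of each gene, 586 genes were higher, follicular helper was at -0.18, resting at -1.72, regulatory at 0.75, *Bcl6* at 0.999 and *Slamf6* at -0.50. By medians over cells 536 genes were higher and 66 lower, resting was at 0, receptor signal at 0.083 (reversed) and *Tcf7* at 2.80. With no minimum 5347 genes were lower, and with 50 cpm 1444 were lower and receptor signal was at -0.42. At 1 read, *Slamf6* was detected in 64.3% of binders and 65.5% of comparison cells, *Tcf7* in 92.9% and 78.2%, and *Bcl6* in 57.1% and 43.6%. Leaving out 1 binder at a time gave 1793 to 1852 genes higher, 2704 to 2807 lower, and medians of 0.24 to 0.68 for follicular helper, -1.34 to -0.82 for resting, -1.44 to -0.96 for receptor signal, -0.25 to 0.15 for effector and memory and 0.79 to 1.59 for regulatory genes. The log2 ratios were then -0.73 to 0.25 for *Slamf6*, 0.77 to 1.83 for *Bcl6* and -0.27 to 0.20 for *Tcf7*. The causes were not tested, except that fewer cells or genes entered where an alternative left them out. With 14 binders from 1 mouse, the intervals of shares were wide, and depth limited statements on genes at 0 to 0.114 cpm.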

Other observations

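*Slc34a2*, a sodium phosphate cotransporter of epithelia (chromosome 5, 53038081 to 53071664), parted P6- from P6+ cells with an overlap of 15 and 16 reads only. Every P6- cell, the ones that failed the quality limits included, held at least 15 reads, the median was 100 and the highest count 8048. In the 32 P6+ cells the counts ran from 0 to 16, the median was 5.5, and 4 cells reached 10. Among binders the range was 0 to 16 and among the 8 comparison cells of the same title prefix 25 to 429. *mt-Co3* moved the same way, with a median of 248 reads in P6- and 49.5 in P6+ cells. The source of this difference was not tested.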
